A study of Mus musculus with 22 samples.

Results

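The 33 genes described here carry fatty acids into the liver cell, break them down and turn the product into ketone bodies. They were listed by symbol for their role in the pathway, with no threshold on their measured values, and all 33 were found among 28034 named genes on a mouse Agilent oligonucleotide array, with Eci1 printed under its older name Dci and Eci2 under Peci. They were divided into 9 steps, namely the regulators and hormone (Ppara, Fgf21), the fuel switch (Pdk4), uptake and activation (Slc27a2, Fabp1, Acsl1), the carnitine shuttle (Cpt1a, Cpt2, Slc25a20, Crat), the mitochondrial beta-oxidation core (Acadvl, Acadl, Acadm, Acads, Hadha, Hadhb, Hadh, Echs1, Acaa2), the auxiliary enzymes for unsaturated fatty acids (Ech1, Eci1, Eci2, Decr1), electron transfer (Etfa, Etfb, Etfdh), the peroxisome (Ehhadh, Acaa1a, Acaa1b, Pex11a) and the ketone body enzymes (Acat1, Bdh1, Bdh2).

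The study measured livers of C57BL/6 mice with and without Tcf7l2, which encodes the Wnt pathway transcription factor TCF4. Newborn livers came from 4 Tcf7l2+/+ wild types and 4 Tcf7l2-/- knockouts, all given 50 µl of 10% glucose under the skin and examined 5 h after birth. Adult livers came from controls carrying the floxed alleles alone (Tcf7l2loxp/loxp) and from LTCF4KO mice (Tcf7l2loxp/loxp;SA-CreERT2), in which the floxed alleles were to be recombined by an inducible Cre whose driver the labels abbreviate as SA. Both adult genotypes received tamoxifen at 3 weeks of age. After a further 1 to 2 months 4 mice of each genotype went 24 h without food, and 3 of each genotype were fed. Samples of a group are biological replicates by their labels. Each array carried liver RNA in Cy3 and a common mouse reference RNA in Cy5, and every value below is a log2 ratio of liver over reference unless the liver signal alone is named. A change is a difference of group means of such ratios, given with its standard error (SE) from limma, and a gene was called at a Benjamini-Hochberg adjusted p under 0.05 over all genes tested.

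Fatty acids are bound and activated to acyl-CoA, carried into mitochondria as carnitine esters, and shortened there in repeated rounds of oxidation whose electrons pass through the electron transfer flavoprotein. Very long chains are shortened first in peroxisomes, and in liver much of the acetyl-CoA becomes the ketone bodies acetoacetate and 3-hydroxybutyrate. The nuclear receptor PPAR alpha is known to switch on many of these genes in fasting and after birth, when milk fat replaces maternal glucose, and Fgf21 is a hormone among its targets.

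Every member was tested in every comparison, and no member's probe was saturated. The share of liver probes well above background was 49.5 to 63.8% in newborns, 49.6 to 61.3% in fasted adults and 22.5 to 30.8% in fed adults. Newborn wild type 1 and newborn knockouts 1 and 4 stood apart from the other newborn arrays on the first principal component, and fasted knockouts 1 and 2 from the other fasted arrays on the second, so results are given with and without them. Newborn wild types and knockouts lay on different slides, as did fasted and fed adults, so that slide and newborn genotype, and slide and feeding, cannot be told apart. Fasted slides and fed slides each held both genotypes. All 8 hepatocyte markers measured were well above background on every array. Tcf7l2 itself read -1.28, -0.83, -0.70 and -0.32 in newborn wild types and -1.85, -1.57, -1.58 and -1.63 in newborn knockouts, every knockout below every wild type, a change of -0.87 ± 0.19 (adjusted p = 0.0580). A second Tcf7l2 probe, well above background on all 8 newborn arrays, gave 0.080 ± 0.12, and another, dim on every newborn array, gave -0.092. The fall in newborns was thus seen with 1 probe only. In adults the knockout change of the first probe was 0.35 ± 0.17 fasted and 0.21 ± 0.20 fed. The labels do not name the exons removed, so these probes cannot check the adult genotype, and the adult groups are knockouts by label.

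Promoters were examined for 29 of the 33 members with an entry in RefSeq (GRCm38.p6), as the 250 bases before the gene's start. They were searched on both strands for AGGTCA, the hexamer that nuclear receptors bind, for AGGNCANAGGTCA, a direct repeat of that hexamer spaced by 1 base of the kind PPAR alpha binds, and for CTTTGA, the core of the TCF/LEF site. AGGTCA stood in 6 of the 29 promoters (20.7%: Acadm, Acadvl, Cpt1a, Echs1, Fabp1 and Slc27a2), against 14.0% of 32851 promoters of all genes. The direct repeat was found in 0.0822% of all promoters and among the members in Fabp1, where it holds 1 of that promoter's AGGTCA matches. CTTTGA was found in 4 of 29 members (13.8%: Acaa1a, Acaa1b, Bdh2 and Slc27a2), and in 13.8% of all promoters. Slc27a2 and Bdh2 are shown because each passed the knockout test at 1 age, Fabp1 because it holds the direct repeat, and the paralogs Acaa1a and Acaa1b because CTTTGA lies at the same place, -93 to -88 from the start, in both. Each is written 5′ to 3′ on the gene's strand with the matches in capitals. The Slc27a2 promoter (GRCm38.p6, chr2:126552774-126553023, plus strand) has CTTTGA at -223 to -218 from the start, overlapping an AGGTCA on the opposite strand.
Slc27a2: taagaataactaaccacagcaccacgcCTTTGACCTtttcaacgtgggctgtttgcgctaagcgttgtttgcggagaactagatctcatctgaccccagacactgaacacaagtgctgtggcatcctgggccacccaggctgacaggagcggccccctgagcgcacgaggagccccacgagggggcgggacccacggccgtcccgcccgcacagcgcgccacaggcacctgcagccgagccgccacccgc
The Bdh2 promoter (chr3:135280971-135281220, plus strand) has CTTTGA on the opposite strand, at -234 to -229.
Bdh2: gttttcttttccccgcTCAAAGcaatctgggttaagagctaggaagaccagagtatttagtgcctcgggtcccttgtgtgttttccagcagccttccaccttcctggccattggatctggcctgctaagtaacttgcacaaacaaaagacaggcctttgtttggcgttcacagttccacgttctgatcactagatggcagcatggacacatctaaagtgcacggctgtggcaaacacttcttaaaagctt
The Fabp1 promoter (chr6:71199629-71199878, plus strand) has the direct repeat on the opposite strand, at -67 to -55, and a further AGGTCA at -9 to -4.
Fabp1: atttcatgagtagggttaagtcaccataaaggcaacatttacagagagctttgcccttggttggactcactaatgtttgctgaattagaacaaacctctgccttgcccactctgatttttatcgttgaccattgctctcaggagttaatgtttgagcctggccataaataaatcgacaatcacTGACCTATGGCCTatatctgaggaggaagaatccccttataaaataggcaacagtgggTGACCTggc
The promoters of Acaa1a (chr9:119341044-119341293, plus strand) and Acaa1b (chr9:119157094-119157343, minus strand) follow.
Acaa1a: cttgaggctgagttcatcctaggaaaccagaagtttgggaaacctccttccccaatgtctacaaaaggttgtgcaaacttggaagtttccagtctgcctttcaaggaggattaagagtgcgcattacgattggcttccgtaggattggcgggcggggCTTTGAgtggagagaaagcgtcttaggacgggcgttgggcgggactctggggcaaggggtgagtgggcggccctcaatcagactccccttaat
Acaa1b: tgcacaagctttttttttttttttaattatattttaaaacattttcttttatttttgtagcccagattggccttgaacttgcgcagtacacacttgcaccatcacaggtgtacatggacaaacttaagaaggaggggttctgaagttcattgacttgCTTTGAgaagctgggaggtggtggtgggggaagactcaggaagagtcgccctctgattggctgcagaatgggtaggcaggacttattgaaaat
These matches describe letters in the promoter, and no binding was measured.

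The first comparison asked how the pathway differs in newborn livers without Tcf7l2. Slc27a2, the fatty acid transporter and very long chain acyl-CoA synthetase, fell in newborn knockouts and was the only member called. Most members lay below 0, 28 of 33, with a median change of -0.35 against -0.013 over all 17129 genes tested. Over all genes 1.41% were called, 0.327% as lower, so 1 of 33 is a small count on a low background. The reference signal alone differed between the newborn genotypes for 13.5% of all genes and for 1 of the 33 members. Its part in the ratios was not tested. At an unadjusted p under 0.05, 11 members were lower and 0 higher, where 997 of all 17129 genes were lower and 1284 higher.

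Slc27a2 read 8.06, 8.12, 7.84 and 7.79 in wild types and 7.37, 6.85, 6.76 and 7.34 in knockouts. No knockout reached the lowest wild type, and the change was -0.87 ± 0.17 (adjusted p = 0.0416), a 1.83-fold lower ratio. The probe lies at chr2:126413550-126413609 (mm9, plus strand, per the file headers). The call was lost when any 1 of the 8 arrays was left out (adjusted p 0.0511 to 0.131), and it held without the 3 arrays that stood apart, at -1.11. A second Slc27a2 probe gave -0.14, with wild type 1 at 2.75 and the other wild types at 4.39 to 4.54. Another, which maps to the minus strand, was dim on every newborn array. With the mean of all its probes, the dim one included, the change of Slc27a2 was -0.33 and did not pass. The liver signal alone gave -0.61 (adjusted p = 0.105). Acsl1, which activates long chains at the outer mitochondrial membrane and elsewhere, read 4.53, 5.39, 5.81 and 6.53 in wild types and 4.99, 5.19, 5.37 and 5.25 in knockouts. Its wild types spanned the whole knockout range, and the change was -0.37 ± 0.35 (adjusted p = 0.753). Fabp1, the abundant fatty acid binding protein of hepatocytes, changed by -0.34 ± 0.16 (adjusted p = 0.423).

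Of the regulators and hormone, Fgf21 was lower in newborn knockouts without passing the test in the ratio, and Ppara differed little. Fgf21 read 0.80, 0.10, 1.22 and -0.30 in wild types and -1.42, -0.13, -0.97 and -1.45 in knockouts, where knockouts 1 and 4 were not well above background. Knockout 2 lay above wild type 4, so the groups overlapped. The change of -1.45 ± 0.38 was the largest of any member (adjusted p = 0.104), and in the liver signal alone, where 5.26% of all genes were called, it was -1.36 and passed (adjusted p = 0.0311). Ppara, the receptor itself, read 3.73, 3.91, 3.78 and 3.73 in wild types and 3.78, 3.53, 3.54 and 3.90 in knockouts, overlapping ranges with a change of -0.10 ± 0.12 (adjusted p = 0.818). Pdk4, the kinase that shuts off pyruvate dehydrogenase when fat is burned, read 5.93, 4.76, 5.11 and 5.09 in wild types and 4.89, 2.52, 4.59 and 5.60 in knockouts. Knockout 2 was far below the others and knockout 4 was above 3 of the wild types, with a change of -0.82 ± 0.57 (adjusted p = 0.632).

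All 4 genes of the carnitine shuttle lay below 0 in newborn knockouts, with a median of -0.51, and none was called. Cpt1a, the rate-limiting step of entry into mitochondria, read 2.71, 3.03, 3.10 and 3.45 in wild types and 2.55, 2.32, 2.67 and 2.45 in knockouts, with no overlap. The change was -0.57 ± 0.16 (adjusted p = 0.120), it passed without wild type 1 (-0.69, adjusted p = 0.043), and a second probe gave -0.66. Slc25a20, the translocase that exchanges acylcarnitine for carnitine across the inner membrane, read 2.88, 2.16, 2.40 and 3.21 in wild types and 2.47, 1.77, 1.86 and 2.46 in knockouts. Its ranges overlapped, and the change was -0.52 ± 0.26 (adjusted p = 0.430). Cpt2, which reforms acyl-CoA inside, changed by -0.50 ± 0.23, and Crat, the carnitine acetyltransferase, by -0.36 ± 0.16.

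Of the 20 genes grouped as mitochondrial steps (shuttle, core, auxiliaries and electron transfer), 17 lay below 0, with a median of -0.34. This grouping is by step, and whether some of these enzymes also work in peroxisomes was not examined. Hadh, the dehydrogenase of short chain 3-hydroxyacyl-CoA, read 2.07, 1.84, 2.10 and 2.15 in wild types and 1.81, 1.31, 1.37 and 1.08 in knockouts. Every knockout was below every wild type, the change was -0.64 ± 0.16 (adjusted p = 0.0890), and it passed without knockout 1. Hadha, the alpha subunit of the trifunctional protein, read 2.11, 1.74, 1.77 and 2.21 in wild types and 1.58, 1.59, 1.54 and 1.55 in knockouts. These ranges were also separate, with a change of -0.39 ± 0.13 (adjusted p = 0.192), and a second bright probe gave -0.64. Hadhb, the beta subunit, changed by -0.33 ± 0.17, and the acyl-CoA dehydrogenases Acadm, Acadl and Acads by -0.20, -0.20 and -0.28. Echs1, the enoyl-CoA hydratase, and Acaa2, the mitochondrial thiolase, differed least, at -0.089 and -0.059. Acadvl, the dehydrogenase of very long chains, stood at 0.26, and wild type 1 read 0.011, a spot with hardly any signal in either channel, against 2.27 to 2.50 in the other wild types. Without that array its change was -0.34.

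Etfa, the alpha subunit of the electron transfer flavoprotein, read 1.61, 1.78, 1.80 and 1.85 in wild types and 1.30, 1.45, 1.41 and 1.42 in knockouts, with separate ranges and a change of -0.36 ± 0.099 (adjusted p = 0.115). Etfdh, which passes those electrons to ubiquinone, read 2.81, 2.55, 2.70 and 3.29 in wild types and 2.47, 1.88, 2.20 and 2.64 in knockouts. Knockout 4 overlapped the wild types, and the change was -0.54 ± 0.20 (adjusted p = 0.269). Etfb, the partner of Etfa in the same dimer, did not follow, at 0.13 ± 0.12. Decr1, the dienoyl-CoA reductase, read 1.48, 0.92, 1.39 and 1.84 in wild types and 1.25, 0.86, 0.87 and 0.91 in knockouts, and Eci1, an enoyl-CoA isomerase, read 1.32, 0.96, 1.41 and 1.79 and 1.09, 0.64, 1.07 and 1.07. In both genes 1 low wild type met the knockouts, and the changes were -0.44 ± 0.19 and -0.40 ± 0.18 (adjusted p = 0.359 and 0.387). Ech1, the dienoyl-CoA isomerase, changed by -0.30 ± 0.20 and Eci2, the second enoyl isomerase, by 0.13 ± 0.20.

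No peroxisomal or ketone body gene was called in newborn knockouts. Ehhadh, the bifunctional enzyme of peroxisomal beta-oxidation, read 3.69, 3.61, 3.62 and 3.76 in wild types and 3.56, 3.05, 2.99 and 3.45 in knockouts, with no overlap and a change of -0.41 ± 0.15 (adjusted p = 0.239). Acaa1a, a peroxisomal thiolase, read 0.69, 0.91 and 2.03 in wild types 2 to 4 (the spot of wild type 1 was left out by the scanner's outlier mark) and 1.11, 0.59, 0.52 and 1.02 in knockouts. Its wild types alone spanned more than 1 log2 unit, and the change was -0.40 ± 0.31 (adjusted p = 0.688). Its close paralog Acaa1b, whose signal may not be fully separate from it, changed by -0.35 ± 0.27, and Pex11a, a membrane protein of peroxisome division, by 0.057 ± 0.18. Bdh1, the mitochondrial 3-hydroxybutyrate dehydrogenase, read 2.31, 2.43, 2.69 and 2.51 in wild types and 1.88, 2.49, 2.11 and 2.10 in knockouts. Knockout 2 lay among the wild types, the ratio changed by -0.34 ± 0.15 (adjusted p = 0.353), and the liver signal alone by -0.56 (adjusted p = 0.0464). A second Bdh1 probe, well above background on all 8 newborn arrays, gave -0.67 ± 0.18. By that probe every knockout lay below every wild type. Acat1, the mitochondrial acetoacetyl-CoA thiolase, read 2.11, 2.34, 2.63 and 2.36 and 2.25, 2.08, 2.29 and 2.01, overlapping and different by -0.20 ± 0.13. Bdh2, the cytosolic dehydrogenase, changed by 0.20 ± 0.28.

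Across the newborn comparison, 6 members had knockouts wholly below wild types (Slc27a2, Cpt1a, Hadha, Hadh, Etfa and Ehhadh) and 0 wholly above, where 3.68% of all genes were separate downward and 5.77% upward. Leaving out the 3 arrays that stood apart gave 29 members below 0 with a median of -0.47. Markers of some cell types moved in the same direction. Of 13 Kupffer cell markers 12 lay below 0 with 1 called lower. Their mean ratio ranged from 3.81 to 3.90 in wild types and 3.03 to 3.59 in knockouts. Of 10 endothelial markers 9 lay below 0 (means 3.36 to 3.84 against 3.08 to 3.58), and of 8 hepatocyte markers 7 did (6.24 to 6.35 against 6.08 to 6.17). Erythroid, stellate cell and fibroblast, and skeletal muscle markers lay below 0 in 10 of 11, 8 of 9 and 7 of 8. Other lists were split, with cholangiocyte, lymphocyte, and neutrophil and myeloid precursor markers below 0 in 3 of 6, 4 of 8 and 6 of 10. Of 4 adipocyte and pancreas markers 1 lay below 0. The part of these shifts in the members' values was not tested. In whole liver RNA, fewer cells of a type and less RNA per cell cannot be told apart.

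**Figure D1:**
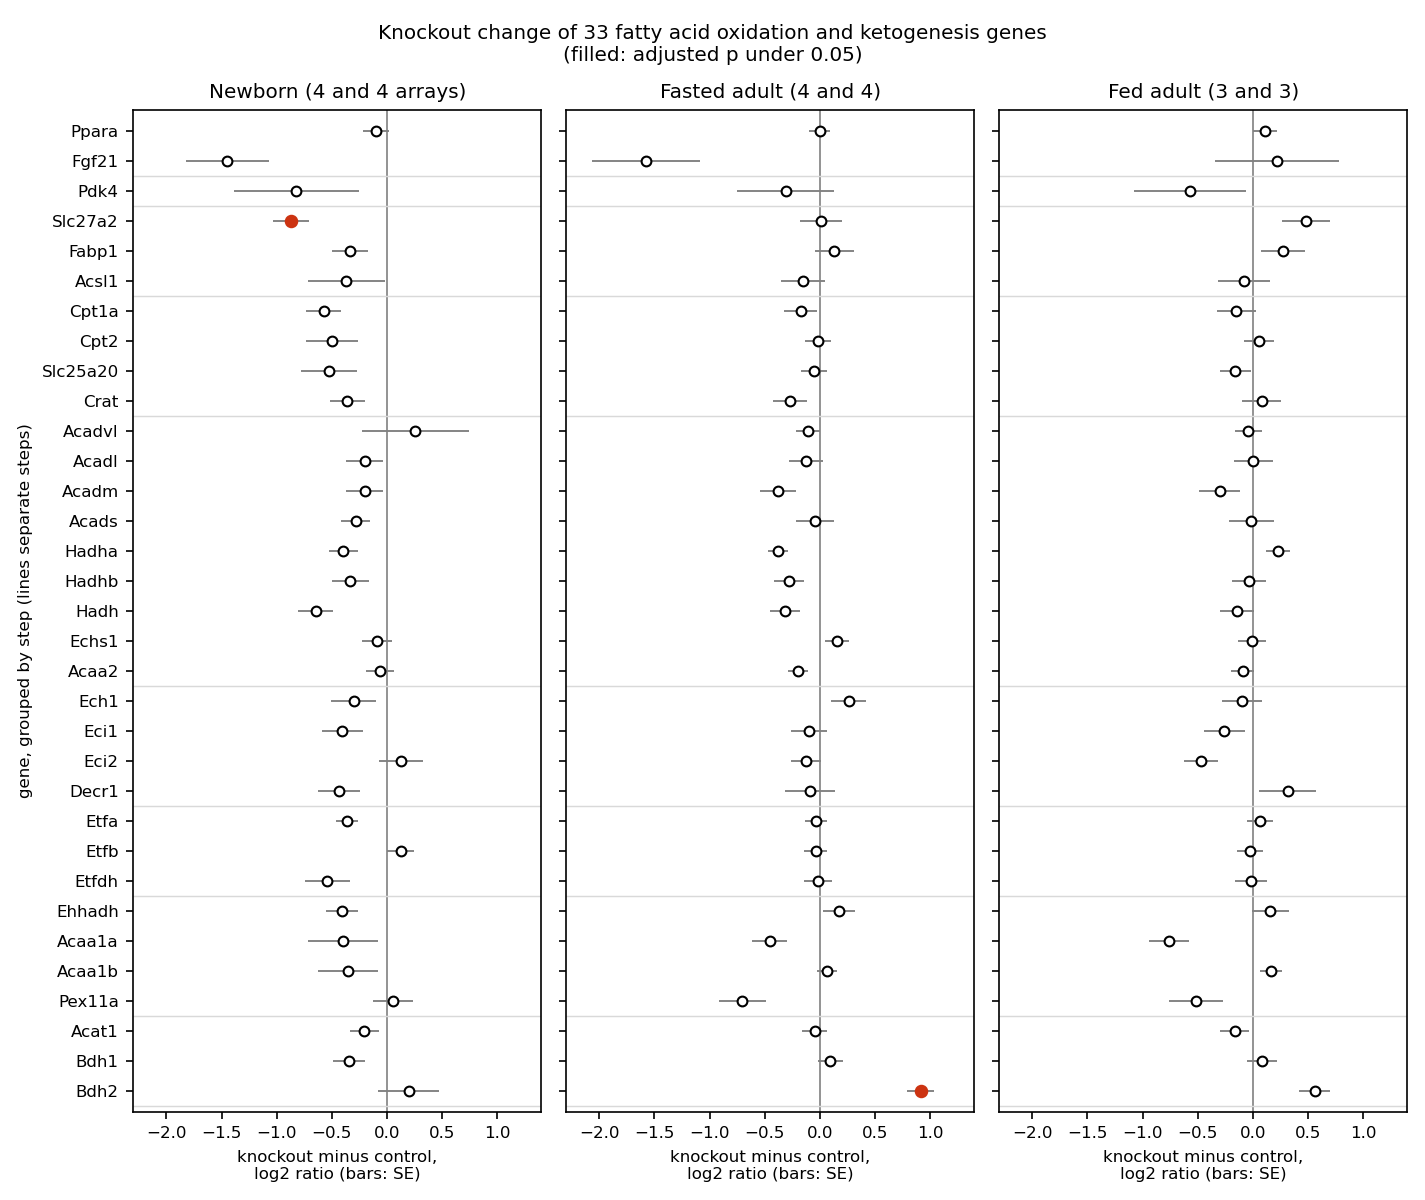
Knockout minus control change of each of the 33 genes (log2 liver over reference, mean ± SE) in newborns (4 against 4), fasted adults (4 against 4) and fed adults (3 against 3), with filled points for an adjusted p under 0.05. In newborns 28 of 33 points lie left of 0 and Slc27a2 is filled. In fasted adults Bdh2 is filled on the right, and in fed adults no point is filled.

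In fasted adults the comparison was between knockouts and controls after 24 h without food. Bdh2, the cytosolic 3-hydroxybutyrate dehydrogenase, rose in the knockouts and was the only member called, while most of the pathway lay close to 0. Over all 17137 genes 0.467% were called, 0.111% as higher and 0.356% as lower. The reference signal alone differed for 0.0467% of genes between the fasted genotypes and for 0.00584% between the fed ones. The members' median was -0.088 with 25 of 33 below 0. Without the 2 knockout arrays that stood apart, 14 of 33 lay below 0 and the median was 0.030.

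Bdh2 read 2.38, 2.42, 2.40 and 2.18 in the fasted controls against 3.48, 3.26, 2.89 and 3.42 in the fasted knockouts. Every knockout was above every control, and the change was 0.92 ± 0.12 (adjusted p = 0.00264), a 1.89-fold higher ratio. The probe lies at chr3:134967306-134967365 (mm9, plus strand). A second Bdh2 probe gave 0.65, and the change was 0.97 within one fasted slide and 0.86 within the other. The liver signal alone gave 0.81 (adjusted p = 0.0405). Without knockouts 1 and 2 the change was 0.81 and no longer passed (adjusted p = 0.0636). The other ketone body genes differed little: Bdh1 read 3.80, 4.04, 4.15 and 4.11 in controls and 4.25, 3.99, 4.15 and 4.09 in knockouts, overlapping throughout, with a change of 0.097 ± 0.12. Acat1 changed by -0.047 ± 0.11.

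Fgf21 had the largest difference of any member in fasted knockouts and did not pass. It read 2.61, 2.60, 3.21 and 2.32 in controls and 0.90, 0.61, 2.96 and -0.045 in knockouts. Knockouts 1, 2 and 4 lay below every control while knockout 3 lay among them, and the change was -1.58 ± 0.49 (adjusted p = 0.227). Without knockout 3 it was -2.19 and passed (adjusted p = 0.00298). A second Fgf21 probe gave -1.35. Ppara overlapped between the genotypes, at 4.19, 4.22, 4.35 and 4.30 in controls and 4.15, 4.197, 4.27 and 4.43 in knockouts, with a change of -0.0020 ± 0.095 and a 95% interval of -0.21 to 0.20. Pdk4 read 2.69, 0.76, 1.85 and 1.63 in controls and 1.01, 1.15, 2.62 and 0.90 in knockouts. Knockout 3 was again high beside its group, at 2.62 against 0.90 to 1.15, and the change was -0.31 ± 0.44 (adjusted p = 0.872).

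Peroxisomal members split in fasted knockouts. Pex11a read 4.01, 5.06, 4.82 and 4.85 in controls and 3.91, 3.61, 4.17 and 4.23 in knockouts. Only control 1 overlapped the knockouts, the change was -0.70 ± 0.21 (adjusted p = 0.209), and it passed without that control (-0.93, adjusted p = 0.0344). Acaa1a read 2.16, 2.53, 2.73 and 2.76 in controls and 2.02, 1.75, 2.49 and 2.09 in knockouts, overlapping, with a change of -0.46 ± 0.16 (adjusted p = 0.287) and -0.36 and -0.31 from its other probes. Ehhadh and Acaa1b lay slightly above 0, at 0.17 ± 0.14 and 0.064 ± 0.090.

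Of the 20 genes grouped as mitochondrial steps 18 lay below 0 in fasted knockouts, with a median of -0.10 and none called. Hadha read 2.36, 2.23, 2.30 and 2.49 in controls and 1.95, 1.90, 2.14 and 1.87 in knockouts, with separate ranges and a change of -0.38 ± 0.093 (adjusted p = 0.120). Its second bright probe gave 0.24 and its liver signal alone 0.44, both opposite in direction. Acadm, the medium chain dehydrogenase, read 3.25, 3.62, 3.48 and 3.53 in controls and 2.94, 2.75, 3.49 and 3.19 in knockouts. Knockout 3 overlapped the controls, and the change was -0.38 ± 0.16 (adjusted p = 0.410). Hadh changed by -0.32 ± 0.13, Hadhb by -0.28 ± 0.13 and Acaa2 by -0.19 ± 0.091, the last with separate ranges. Acadvl, Acadl, Acads and Echs1 lay at -0.11, -0.13, -0.043 and 0.16.

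Crat read 1.53, 2.01, 1.81 and 1.35 in the fasted controls against 1.39, 1.23, 1.54 and 1.45 in the fasted knockouts, and Cpt1a read 2.44, 2.77, 2.76 and 2.95 and 2.43, 2.27, 2.93 and 2.60. Both pairs of ranges overlapped, with changes of -0.27 ± 0.15 and -0.17 ± 0.15. Cpt2 and Slc25a20 lay at -0.017 and -0.055. Ech1 read 2.84, 2.82, 3.01 and 2.70 in controls and 3.10, 3.10, 3.44 and 2.78 in knockouts, and Eci2 read 2.26, 2.23, 2.60 and 2.58 and 2.25, 1.97, 2.48 and 2.47. These ranges overlapped too, with changes of 0.26 ± 0.16 and -0.12 ± 0.14, and Decr1 and Eci1 lay at -0.088 and -0.097. Etfa read 1.59, 1.80, 1.61 and 1.81 in controls and 1.61, 1.58, 1.67 and 1.81 in knockouts, and Etfb 2.22, 2.42, 2.51 and 2.51 and 2.33, 2.29, 2.51 and 2.38. Neither pair was separate, with changes of -0.035 ± 0.10 and -0.038 ± 0.10, and Etfdh lay at -0.018. Acsl1 read 5.78, 5.90, 6.44 and 6.21 in controls and 6.51, 5.48, 5.87 and 5.85 in knockouts, and Fabp1 8.52, 8.87, 9.20 and 8.94 and 9.14, 8.77, 9.05 and 9.10. Both overlapped, with changes of -0.15 ± 0.20 and 0.13 ± 0.18. Slc27a2, the member called in newborns, changed by 0.012 ± 0.19 (95% interval -0.39 to 0.42).

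In all, 3 members had separate ranges in the fasted comparison, Bdh2 upward and Hadha and Acaa2 downward, where 3% of all genes were separate upward and 3.49% downward. Adipocyte and pancreas markers had a mean ratio of 0.55 to 1.23 in fasted controls and 0.32 to 2.99 in fasted knockouts, and skeletal muscle markers ranged from -0.83 to 3.19 and from -0.88 to 2.83. Kupffer cell markers lay above 0 in 11 of 13 (means 3.30 to 3.93 against 3.71 to 3.93), with 0 called. Their part in the members' values was not tested.

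In fed adults no member was called in either direction, where 0.216% of 17137 genes were (0.0292% higher, 0.187% lower). At an unadjusted p under 0.05, 2 members were higher (Slc27a2 and Bdh2) and 2 lower (Acaa1a and Eci2). Of all 17137 genes, 710 were higher and 514 lower at that threshold. The members' median was -0.016, and 19 of 33 lay below 0. Acaa1a read 2.57, 2.74 and 2.63 in the fed controls against 1.93, 1.78 and 1.95 in the fed knockouts. Every knockout was below every control, the change was -0.76 ± 0.18 (adjusted p = 0.204), and the other probes gave -0.47 and -0.46. Pex11a read 3.39, 3.32 and 3.74 in controls and 3.15, 2.99 and 2.77 in knockouts, also separate, with a change of -0.52 ± 0.24 (adjusted p = 0.721). Ehhadh and Acaa1b lay at 0.16 and 0.17.

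Bdh2 read 2.51, 2.50 and 2.39 in the fed controls against 3.05, 3.08 and 2.96 in the fed knockouts. Each knockout was above each control, as in the fasted livers, and the change of 0.56 ± 0.14 did not pass (adjusted p = 0.229). A second probe gave 0.58, and the change was 0.55 and 0.52 within the 2 fed slides. Acat1 read 2.05, 2.25 and 2.07 in controls and 2.13, 1.97 and 1.78 in knockouts, with a change of -0.16 ± 0.13, and Bdh1 changed by 0.082 ± 0.13. Slc27a2 read 8.79, 8.03 and 8.35 in controls and 9.19, 8.70 and 8.74 in knockouts, and Fabp1 11.46, 10.95 and 10.84 and 11.61, 11.39 and 11.08. In both genes the highest control lay above the lowest knockout, with changes of 0.48 ± 0.22 and 0.28 ± 0.20, and Acsl1 lay at -0.079.

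Eci2 read 1.89, 2.15 and 1.83 in the fed controls against 1.61, 1.47 and 1.39 in the fed knockouts, separate ranges with a change of -0.47 ± 0.16 (adjusted p = 0.458). Decr1 read 1.91, 2.68 and 2.62 in controls and 2.94, 2.92 and 2.32 in knockouts, of which control 1 and knockout 3 were not well above background, and its change was 0.32 ± 0.26. Eci1 and Ech1 lay at -0.26 and -0.097. Acadm read 3.41, 3.83 and 3.61 in controls and 3.16, 3.20 and 3.59 in knockouts, and Hadha 2.20, 2.08 and 2.18 and 2.42, 2.44 and 2.27. The Acadm ranges overlapped at -0.30 ± 0.19, while the Hadha knockouts were all above the controls at 0.23 ± 0.11 (adjusted p = 0.712). The other 7 core enzymes lay between -0.14 and 0.0042.

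Slc25a20 read 3.18, 3.29 and 3.42 in the fed controls against 3.30, 3.18 and 2.95 in the fed knockouts, and Cpt1a 2.41, 2.68 and 2.53 and 2.55, 2.44 and 2.18. Both overlapped, with changes of -0.16 ± 0.14 and -0.15 ± 0.18, and Cpt2 and Crat lay at 0.053 and 0.081. Etfa read 1.97, 2.18 and 1.82 in controls and 2.16, 2.03 and 1.96 in knockouts, and Etfb 2.75, 2.87 and 2.62 and 2.78, 2.55 and 2.83. No electron transfer gene was separate, with changes of 0.062 ± 0.12, -0.027 ± 0.12 and -0.016 ± 0.15 for Etfa, Etfb and Etfdh. Fgf21 read 0.65, 0.43 and -0.0080 in controls and 1.01, 0.15 and 0.57 in knockouts, and only knockout 1 was well above background. Pdk4 read 1.54, 0.18 and 0.40 and 0.25, 0.24 and -0.074, and only control 1 was well above background. Neither gene was measured well enough in fed liver for a knockout difference to be read. Ppara read 4.56, 4.63 and 4.41 in controls and 4.76, 4.67 and 4.52 in knockouts, overlapping, with a change of 0.11 ± 0.11.

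In the fed comparison 2 members were separate upward (Hadha and Bdh2) and 4 downward (Eci1, Eci2, Acaa1a and Pex11a), where 7.03% and 4.19% of all genes were. Within 1 fed slide 21 members lay above 0 and within the other 10, with medians of 0.066 and -0.072. All 8 hepatocyte markers lay above 0 in fed knockouts with 0 called, and their mean ratio was 6.64 to 7.02 in controls and 7.27 to 7.57 in knockouts. All 13 Kupffer cell markers did too (means 2.81 to 3.15 against 3.18 to 3.76). Their part in the members' values was not tested.

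**Figure D2:**
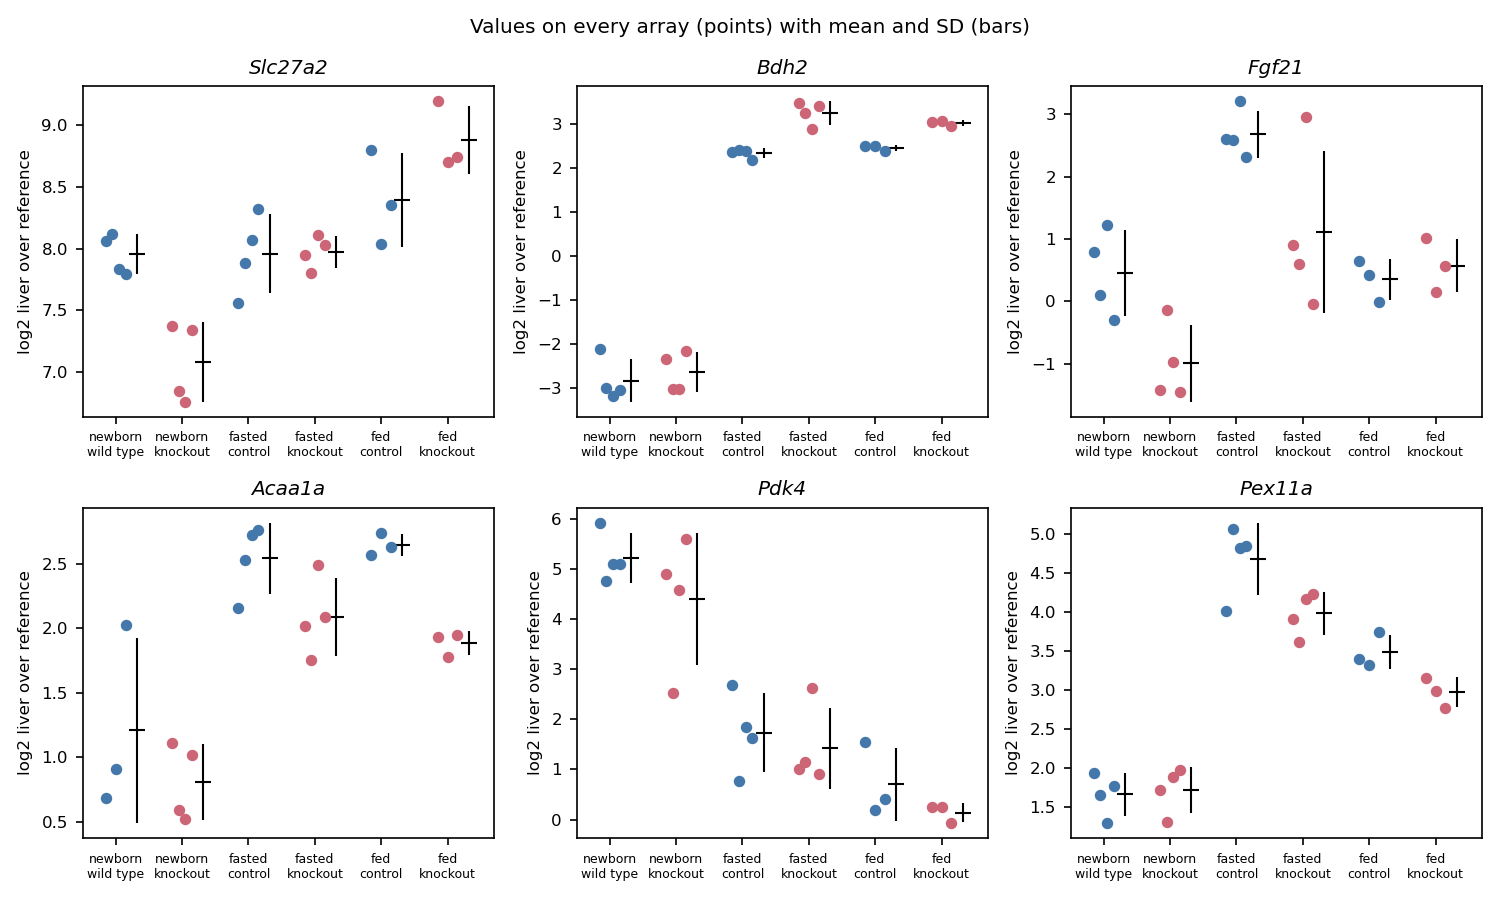
Log2 liver over reference of Slc27a2, Bdh2, Fgf21, Acaa1a, Pdk4 and Pex11a on every array of the 6 groups, with the group mean and SD. Slc27a2 separates the newborn genotypes only, Bdh2 separates both adult pairs, and fasted knockout 3 lies apart from the other fasted knockouts in Fgf21 and Pdk4.

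The newborn and adult knockout changes were compared in 1 fit over all 22 arrays, with 15816 genes. Slc27a2 differed between newborns and fed adults by -0.87 against 0.48, a difference of -1.35 ± 0.28 (adjusted p = 0.0313), and was the only member of 33 called, where 0.588% of all genes were. In 7 of 14 fits with 1 array left out it was not called. Against fasted adults its difference was -0.88 ± 0.26 (adjusted p = 0.161), and 0 members were called where 0.493% of all genes were. The members' median difference was -0.25 against fasted and -0.30 against fed adults. For Bdh2 the newborn minus fasted difference was -0.72 ± 0.30 (adjusted p = 0.377), so that its adult rise was not shown to differ from the newborn change of 0.20.

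Several members sat at very different ratios in newborn and adult liver whatever the genotype, a description only, since age, slide and scan day cannot be told apart. Bdh2 lay between -3.16 and -2.11 in newborns and between 2.18 and 3.48 in adults. Pdk4 lay between 2.52 and 5.93 in newborns and between -0.074 and 2.69 in adults, higher in most newborns, though newborn knockout 2 lay below fasted control 1 and fasted knockout 3. Pex11a lay between 1.29 and 1.97 in newborns and between 2.77 and 5.06 in adults. Cpt2, Bdh1, Acads, Decr1, Ppara, Eci1, Etfb and Acaa1b were also lower on every newborn array than on every adult array, Etfb and Acaa1b narrowly. Second probes of Bdh1 and Decr1 overlapped between the ages. The share of all genes separate in this way was not computed. Within the adults, Fabp1, Acaa1b, Acaa2, Echs1, Acads, Ehhadh, Etfa and Etfb were lower on all 8 fasted arrays than on all 6 fed arrays. Etfdh, Decr1 and, narrowly, Acadl were higher. Within controls 9 members were separate upward and 9 downward after fasting, where 24.4% and 19.2% of all genes were. Within knockouts 7 and 11 were, where 22.3% and 20.2% of all genes were.

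The remaining comparison asked how 24 h without food moved the pathway. Decr1, Etfdh, Acadl, Eci2 and Slc25a20 rose in fasted controls and in fasted knockouts, and Fabp1 and Etfb fell, in the ratio and in the liver signal alone. Fgf21 rose in both readouts in controls. In the ratio 14 members were called in controls (7 higher, 7 lower), where 36.8% of all genes were (20.2% higher, 16.6% lower), and 17 in knockouts (6 higher, 11 lower), where 35.7% were (18.7% and 17%). The members' medians were 0.031 and 0.046, beside 0.054 and 0.039 over all genes.

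These ratios need both channels read. The reference RNA was nominally the same on every array, and its signal alone differed between fasted and fed arrays for 58.7% of all genes in controls and 55.5% in knockouts. In the liver signal alone, scaled between arrays, 17 members were called in controls (14 higher, 3 lower) and 15 in knockouts (12 higher, 3 lower), where 38.5% and 30.2% of all genes were, and the members' median was 0.45 in both. The ratio and the liver signal had opposite signs for 11 members in controls and 12 in knockouts. Of the members called in the ratio, 8 of 14 in controls and 7 of 17 in knockouts were called the same way by liver signal alone, and 2 and 3 were called the opposite way. Fasted and fed livers shared no slide, so feeding, slide and scan day cannot be told apart in either readout.

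**Figure D3:**
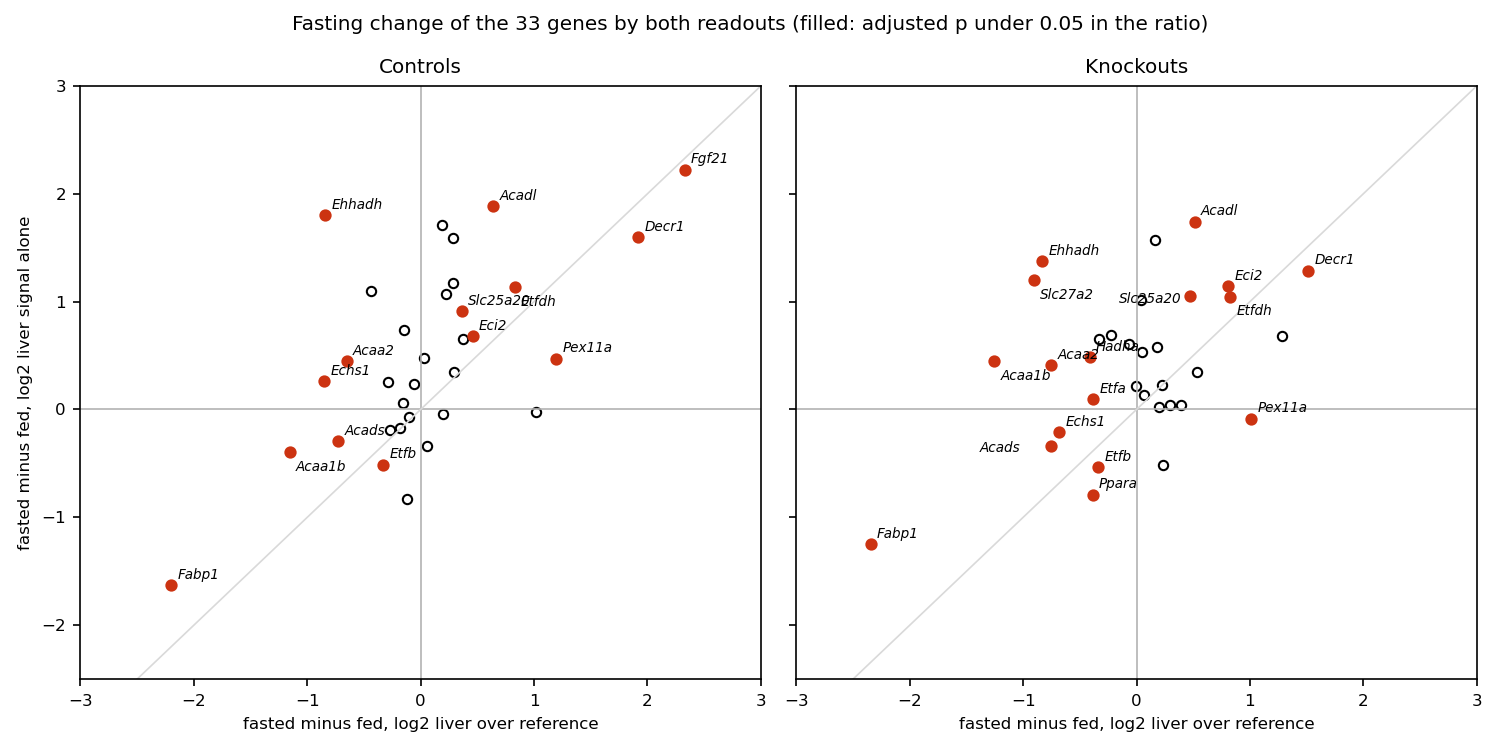
Fasted minus fed change of each member in controls and in knockouts, with the log2 liver over reference ratio on the horizontal axis and the log2 liver signal alone on the vertical axis. Decr1 and Fabp1 lie in the quadrants where both readouts have the same sign, while Ehhadh, Acaa2 and, in knockouts, Slc27a2 lie where the ratio is negative and the liver signal positive.

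Of the 4 auxiliary enzymes for unsaturated fatty acids, Decr1 and Eci2 rose after fasting in both genotypes. Decr1 read 3.90, 4.31, 4.58 and 4.52 in the fasted controls against 3.82, 4.24, 4.60 and 4.29 in the fasted knockouts, above all fed values given earlier. The change was 1.92 ± 0.24 in controls and 1.52 ± 0.24 in knockouts (adjusted p = 1.05e-04 and 5.22e-04), and 1.60 and 1.29 in liver signal alone. With the local backgrounds left as deposited it was 0.25 and 1.60 and did not pass. Eci2 changed by 0.46 ± 0.15 and 0.81 ± 0.15 (adjusted p = 0.0274 and 0.00124), and every fasted value was above every fed value of the same genotype. In controls the Eci2 call was lost in 4 of 7 fits with 1 array left out. Ech1 changed by -0.18 ± 0.17 and 0.18 ± 0.17, and Eci1 by 0.23 ± 0.17 and 0.39 ± 0.17, with none passing.

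Etfdh read 3.52, 3.62, 3.86 and 3.68 in the fasted controls against 3.71, 3.31, 3.80 and 3.77 in the fasted knockouts, against 2.86, 2.90 and 2.76 and 3.05, 2.77 and 2.65 in the fed groups. All fasted arrays were above all fed arrays, with changes of 0.83 ± 0.14 and 0.83 ± 0.14 (adjusted p = 6.79e-04 and 7.19e-04). Etfb moved the other way, by -0.33 ± 0.11 and -0.34 ± 0.11 (adjusted p = 0.0340 and 0.0302), and its liver signal fell by 0.51 and by 0.53. With 1 array left out the Etfb call was lost in 4 of 7 fits in controls and 5 of 7 in knockouts. With the local backgrounds left as deposited it passed in neither genotype. Etfa passed as lower in knockouts at -0.38 ± 0.11 in the ratio, where its liver signal alone was 0.094, and changed by -0.28 ± 0.11 in controls.

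The beta-oxidation core went in both directions. Acadl, the long chain dehydrogenase, read 2.29, 2.72, 2.71 and 2.93 in fasted controls, 2.53, 2.31, 2.78 and 2.52 in the fasted knockouts, 1.82, 2.28 and 1.97 in the fed controls against 2.19, 1.96 and 1.93 in the fed knockouts. Fasted values exceeded the fed values of each genotype, and the change was 0.64 ± 0.16 and 0.51 ± 0.16 (adjusted p = 0.00868 and 0.0279), larger in liver signal alone at 1.88 and 1.74. In knockouts the Acadl call was lost in 3 of 7 fits with 1 array left out. With the local backgrounds left as deposited it passed in neither genotype. Acads, the short chain dehydrogenase, read 1.68, 2.57, 2.57 and 2.55 in the fasted controls against 2.11, 2.34, 2.37 and 2.37 in the fasted knockouts, below 2.99, 3.05 and 3.16 and 3.22, 2.98 and 2.97 in the fed groups. It fell by 0.73 and by 0.76 in the ratio (SE 0.19 in both), while the liver signal changes of -0.29 and -0.34 did not pass.

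Echs1 read 1.63, 1.91, 1.75 and 1.82 in the fasted controls against 2.23, 1.73, 1.91 and 1.88 in the fasted knockouts, against 2.62, 2.65 and 2.61 and 2.72, 2.58 and 2.56 in the fed groups. The groups were separate, and the ratio passed as lower at -0.85 ± 0.12 and -0.68 ± 0.12, with liver signal changes of 0.26 and -0.21 that did not pass and differ in sign. Acaa2 read 4.12, 4.02, 4.15 and 4.17 and 4.02, 3.79, 3.97 and 3.89 in the fasted groups and 4.71, 4.92 and 4.66 and 4.69, 4.57 and 4.75 in the fed groups. Its ratio passed as lower at -0.65 ± 0.098 and -0.75 ± 0.098, and its liver signal passed as higher at 0.45 and 0.41. Hadha passed as lower in knockouts at -0.41 ± 0.10 (controls 0.19 ± 0.10), with a liver signal change of 0.49 and 0.23 from the mean of its probes, both opposite in sign. Hadhb read 2.03, 2.37, 2.50 and 2.49 and 1.99, 1.84, 2.36 and 2.08 fasted and 1.99, 2.20 and 1.99 and 2.15, 2.02 and 1.91 fed, and its ratio changed by 0.29 ± 0.14 and 0.043 ± 0.14 without passing. Its liver signal passed as higher, at 1.59 and 1.01.

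Of the carnitine shuttle, Slc25a20 read 3.69, 3.81, 3.42 and 3.74 in the fasted controls against 3.61, 3.39, 3.78 and 3.65 in the fasted knockouts, above the fed arrays of each genotype, though controls 3 of both states nearly met. The change was 0.37 ± 0.13 and 0.47 ± 0.13 (adjusted p = 0.0413 and 0.0136), and in controls it was lost in 5 of 7 fits with 1 array left out. With the local backgrounds left as deposited the control value was -0.37, opposite in sign and not called. Cpt2 read 3.09, 3.08, 3.36 and 3.04 and 3.27, 2.81, 3.27 and 3.16 fasted and 2.85, 2.90 and 2.80 and 3.04, 2.80 and 2.87 fed, with changes of 0.29 ± 0.13 and 0.22 ± 0.13 that did not pass. Cpt1a changed by 0.19 ± 0.16 and 0.17 ± 0.16 in the ratio, not passing, and its liver signal passed as higher at 1.71 and 1.57. The second Cpt1a probe gave ratio changes of 1.55 ± 0.25 and 1.22 ± 0.25, with 4 of the 6 fed arrays well above background, and with the mean of both probes Cpt1a passed as higher in both genotypes. Crat read 1.17, 1.35 and 1.65 in the fed controls against 1.64, 1.31 and 1.46 in the fed knockouts, and changed by 0.28 ± 0.16 and -0.069 ± 0.16.

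Fabp1 had the largest fall of any member in the ratio, in controls and in knockouts. Its fasted values of 8.52 to 9.20 lay below every fed value (10.84 to 11.61), and the change was -2.20 ± 0.19 in controls and -2.34 ± 0.19 in knockouts (adjusted p = 8.57e-06 and 4.72e-06). The liver signal fell by 1.63 and by 1.25. Slc27a2 read 7.56, 7.89, 8.07 and 8.32 in the fasted controls against 7.94, 7.80, 8.11 and 8.03 in the fasted knockouts. Its ratio changed by -0.43 ± 0.20 in controls and passed as lower in knockouts at -0.90 ± 0.20, while its liver signal passed as higher in both at 1.102 and 1.20. The second Slc27a2 probe, well above background on every adult array, went the other way in the ratio, at 0.49 ± 0.19 and 0.38 ± 0.19, and with the mean of its probes Slc27a2 did not pass. Acsl1 changed by 0.37 ± 0.22 and 0.30 ± 0.22. Its other probes, also well above background on every adult array, gave -0.0074 and -0.11 in controls and -0.37 and -0.11 in knockouts, opposite in sign.

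Among the peroxisomal genes, Pex11a was higher on every fasted array than on the fed arrays of its genotype, with ratio changes of 1.20 ± 0.23 and 1.01 ± 0.23 (adjusted p = 0.00155 and 0.00460). The liver signal alone gave 0.47 and -0.086 without passing, so the direction in knockouts depends on the readout. Acaa1b read 4.07, 3.91, 4.01 and 4.14 in fasted controls, 4.05, 4.05, 4.14 and 4.15 in the fasted knockouts, 5.25, 5.30 and 5.01 in the fed controls against 5.40, 5.29 and 5.37 in the fed knockouts. The fasted values were all lower, by -1.15 ± 0.097 and -1.26 ± 0.097 in the ratio (adjusted p = 7.84e-06 and 4.32e-06), with liver signal changes of -0.39 and 0.45 that differ in sign and did not pass. Ehhadh read 3.83, 3.92, 3.43 and 4.09 and 4.16, 3.89, 4.00 and 3.93 in the fasted groups and 4.76, 4.54 and 4.68 and 4.99, 4.93 and 4.54 in the fed groups. Its ratio passed as lower at -0.84 ± 0.15 and -0.83 ± 0.15, and its liver signal as higher at 1.80 and 1.38. Acaa1a changed by -0.10 ± 0.17 and 0.20 ± 0.17, without passing. Its other probes gave -0.56 ± 0.16 and -0.60 ± 0.15 in controls and -0.45 ± 0.16 and -0.45 ± 0.15 in knockouts, opposite in sign there, and with the mean of its probes Acaa1a passed as lower in controls.

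**Figure D4:**
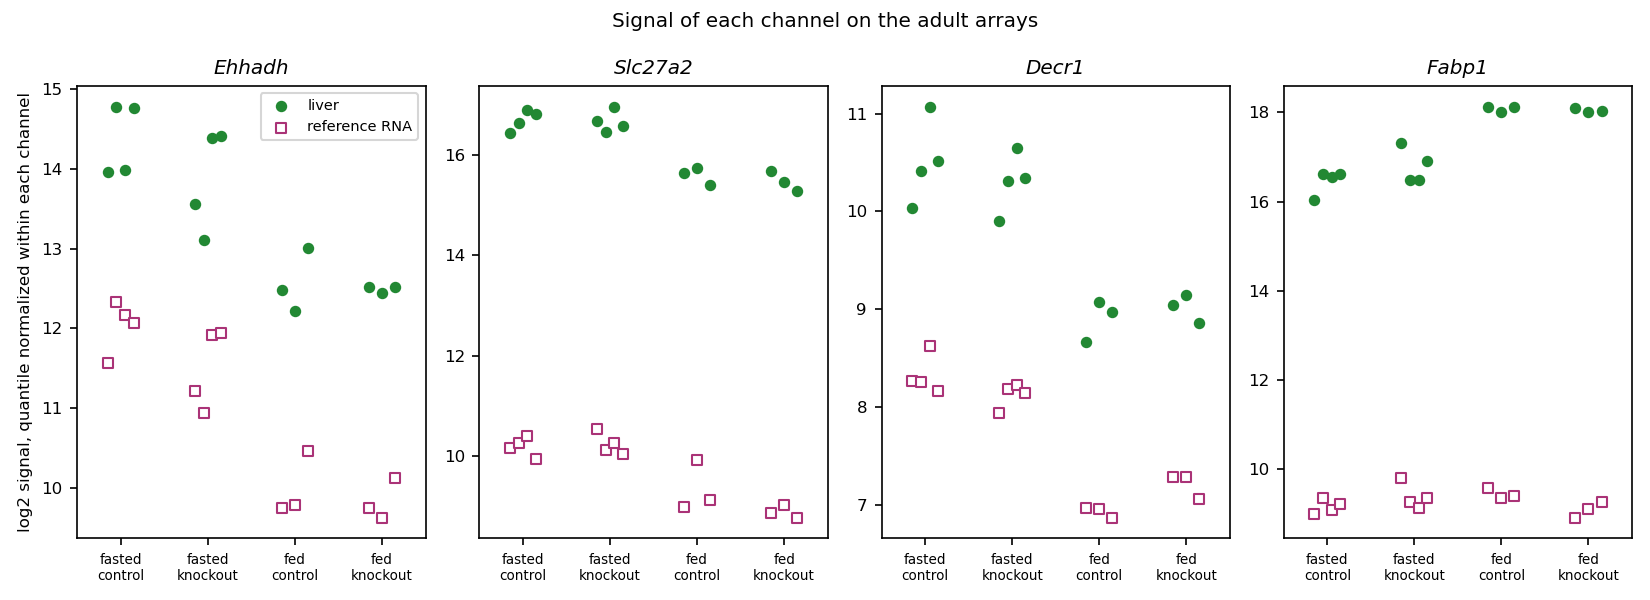
Log2 liver signal and log2 reference signal of Ehhadh, Slc27a2, Decr1 and Fabp1 on each of the 14 adult arrays. Ehhadh is higher on fasted than on fed arrays in both channels, by 1.80 in liver and 2.03 in reference signal in controls, while the Fabp1 liver signal is lower by -1.63 in controls and -1.25 in knockouts and its reference signal differs by -0.28 in controls and 0.30 in knockouts.

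Fgf21 rose in fasted controls by 2.33 ± 0.53 (adjusted p = 0.00424) and by 2.22 in liver signal alone. With the local backgrounds left as deposited, its rise in controls did not pass. Since no fed control array was well above background, the fed arrays were taken at the higher of their own signal and the lowest signal well above background. On that basis the liver signal in fasted controls was at least 3.41-fold higher when the liver channel was scaled alone, and at least 5.29-fold when both channels were scaled together. In knockouts the ratio changed by 0.53 ± 0.53 (adjusted p = 0.454), where 1 fed array was well above background. A second Fgf21 probe gave 1.57 in controls and -0.44 in knockouts, the latter opposite in sign. Pdk4 changed by 1.02 ± 0.48 in controls and 1.28 ± 0.48 in knockouts (adjusted p = 0.109 and 0.0504), and as no fed knockout array was well above background the latter is at least 1.101-fold in the liver channel scaled alone and at least 1.34-fold with both scaled together. Ppara read lower on every fasted array than on the fed arrays of its genotype, and passed in knockouts at -0.39 ± 0.10, with -0.27 ± 0.10 in controls. No ketone body gene passed in the ratio. The changes of Bdh2 were -0.12 ± 0.13 and 0.23 ± 0.13, of Bdh1 0.031 ± 0.13 and 0.046 ± 0.13, and of Acat1 -0.055 ± 0.12 and 0.062 ± 0.12. The second Bdh1 probe gave 0.44 ± 0.17 in controls and 0.29 ± 0.17 in knockouts. Bdh2 passed as lower in liver signal alone, at -0.83 and -0.51.

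Without fasted knockouts 1 and 2, 13 members were called for fasting in knockouts, where 26.6% of all genes were. Hepatocyte markers moved with fasting as well, 6 of 8 passing as lower in controls and 7 of 8 in knockouts, with mean ratios of 5.60 to 5.97 in fasted and 6.64 to 7.02 in fed controls. Of 10 endothelial markers 7 passed as higher and 1 as lower in controls, and 6 as higher and 3 as lower in knockouts. The part of these shifts in the members' values was not tested.

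Whether the fasting response differed by genotype was tested as an interaction, and 0 of 33 members and 0 of 17137 genes passed in limma. At an unadjusted p under 0.05, 0 members were higher and 2 lower, where 468 genes were higher and 667 lower. Those 2 were Hadha, at -0.61 ± 0.14 (adjusted p = 0.552), and Fgf21, at -1.80 ± 0.74 (adjusted p = 0.734). The Hadha liver signal alone gave 0.53 and a second probe, dim on every fed array, 0.32, both of opposite sign. Fgf21 was well above background on none of the 3 fed controls and 1 of the 3 fed knockouts, so its interaction rests on levels known only as bounds and cannot be read as a measured difference. The largest values in the remaining steps were -0.47 ± 0.29 for Slc27a2, -0.41 ± 0.34 for Decr1, -0.35 ± 0.23 for Crat, 0.35 ± 0.19 for Bdh2, 0.30 ± 0.24 for Acaa1a, 0.26 ± 0.67 for Pdk4, likewise dim on most fed arrays, and -0.097 ± 0.16 for Etfa.

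Other genes of the pathway were followed as 3 lists. Of 21 other mitochondrial fatty acid genes, 16 lay below 0 in newborn knockouts with 1 called lower, where 0.327% of all genes were, and 0 were called in either adult knockout. Acsm3, a medium chain acyl-CoA synthetase, was that gene, at -1.11 ± 0.19 (adjusted p = 0.0281), with a liver signal change of -0.12. Cpt1b, the muscle type carnitine palmitoyltransferase, came next at -1.11 ± 0.23 (adjusted p = 0.0552). Of the other peroxisomal genes (29 tested in newborns and 30 in adults), 0 were called in any knockout comparison, with 22, 23 and 14 below 0 in newborn, fasted and fed knockouts.

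Of 20 other genes of the PPAR alpha axis, 17 lay below 0 in newborn knockouts with 0 called. In fasted knockouts 2 were called lower and in fed knockouts 2, where 0.356% and 0.187% of all genes were. Aldh3a2, the fatty aldehyde dehydrogenase, fell in both adult comparisons, by 3.26 fasted and by 2.35 fed (SE 0.19 and 0.22, adjusted p = 9.51e-07 and 1.53e-04). Acot1, a cytosolic acyl-CoA thioesterase, fell in fasted knockouts at -2.05 ± 0.40 (adjusted p = 0.0449). Next over the lists were Hsdl2 and Hsd17b10, both from the mitochondrial list, at -0.42 ± 0.10 and -0.46 ± 0.12 without passing. Cyp4a14, a microsomal fatty acid omega-hydroxylase, fell in fed knockouts at -2.03 ± 0.28 (adjusted p = 0.00589), and its liver signal alone did not pass. Vnn1 and Cyp4a10 followed at -2.59 ± 0.52 and -1.54 ± 0.35. In newborns Cyp4a14 and Cyp4a10 changed by -1.14 ± 0.28 and -1.40 ± 0.43 without passing.

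After fasting, 11 of the 21 other mitochondrial genes passed in controls (4 higher, 7 lower) and 11 in knockouts (3 higher, 8 lower). Of the 30 other peroxisomal genes 19 passed in controls (7 higher, 12 lower) and 13 in knockouts (2 higher, 11 lower), and of the 20 PPAR alpha axis genes 9 (6 higher, 3 lower) and 11 (7 higher, 4 lower). Over all genes 36.8% passed in controls (20.2% higher, 16.6% lower) and 35.7% in knockouts (18.7% higher, 17% lower). Pecr, the peroxisomal enoyl-CoA reductase, fell at -1.11 ± 0.11 in controls and -1.02 ± 0.11 in knockouts, also in liver signal alone. Cat, the catalase of peroxisomes, passed as lower in the ratio at -1.03 ± 0.11 and -0.95 ± 0.11 and as higher in liver signal alone at 0.83 and 0.65. Hsdl2 rose in controls at 1.01 ± 0.11. In knockouts Scp2, the sterol carrier protein with a thiolase form, passed as lower in the ratio at -0.99 ± 0.11, and Acsl5, an acyl-CoA synthetase, fell at -1.05 ± 0.12 in both readouts. The largest interaction of these lists was 2.14 ± 0.37 for Cyp4a14 (adjusted p = 0.355), and 0 passed.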

How the data were processed

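Livers of 22 mice in 6 groups were measured on 2-colour Agilent arrays. The authors deposited spot intensities from the scanner, written by Feature Extraction (10.5.1.1 per the file headers, 8.5.1.1 per the submitters' processing notes), and log10 ratios of red over green per the file headers. The liver was in green (Cy3) and the reference in red (Cy5) per the labels, with no dye swap. The deposited value table equalled the array's own log ratio (largest difference 0). Its direction is red over green, and the ratios here are liver over reference.

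Median spot intensities were corrected by normexp (offset 50, with local backgrounds that the scanner marked as outliers replaced by the array median), normalized by loess within arrays and averaged over spots of a probe. Each gene was read from its brightest probe. Genes whose liver signal cleared the background on 4 or more newborn arrays, or 3 or more adult arrays, were tested (17129 and 17137), on the log2 scale, with limma 3.58.1 in R 4.3.3, two-sided, with Benjamini-Hochberg adjustment and a threshold of 0.05. Newborns (8 arrays, 6 residual degrees of freedom) and adults (14 arrays, 10) were fitted separately. Of 41174 probes, 32831 were named through RefSeq and 8343 kept the name in the files. The number of arrays limits the precision. The fit was tested on simulated data.

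The members, the other gene lists and the marker lists were chosen with earlier results of these data known. Members called, and in each step the 2 with the largest change in each comparison, are given with all values. Of the other pathway genes, up to 4 with the smallest adjusted p in a comparison are named. Alternatives tried were the deposited backgrounds, the deposited log ratio, median centring, the liver channel alone, no filter, the mean of a gene's probes, the slide and the replicate number as blocks, leaving out each array, and leaving out the arrays that stood apart (chosen after seeing the data).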

Additional observations from a re-analysis of the deposited data

Results flagged for a closer look

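In 131 sets of 4 arrays of a group, 8 had 1 array far from the others, where chance flags about 1 in 20 sets. Pdk4 read 2.62 in fasted knockout 3 against 0.90 to 1.15 in the other fasted knockouts. Cpt2 read 3.36 in fasted control 3 (others 3.04 to 3.09), and Hadh read 2.14 there (others 2.56 to 2.63). Acads read 1.68 in fasted control 1 (others 2.55 to 2.57) and 2.11 in fasted knockout 1 (others 2.34 to 2.37). Acadvl read 0.011 in newborn wild type 1 (others 2.27 to 2.50). Eci1 read 0.64 in newborn knockout 2 (others 1.07 to 1.09), and Decr1 read 1.25 in newborn knockout 1 (others 0.86 to 0.91).

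The knockout change of Slc27a2 differed between newborn and fed adult livers by -1.35 in the test of the difference itself, the only member for which that test passed.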

How the results depend on the processing

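With the local backgrounds left as deposited, 0 members were called in newborn knockouts, 8 after fasting in controls and 9 in knockouts, and 0 for newborn against fed adult. The median became 0.11 in fasted knockouts, -0.089 for fasting in controls and 0.15 for the interaction, and Slc25a20 in fasted controls turned to -0.37. With the deposited log ratio the fasting median in knockouts was 0.23, and newborn against fed adult had 0 calls. The liver channel alone called 2 members in newborn knockouts (Fgf21, Bdh1) and gave fasting medians of 0.45 (controls) and 0.45 (knockouts). It reversed Acaa2 (0.45), Echs1 (0.26) and Ehhadh (1.80) in controls, and Etfa (0.094), Acaa2 (0.41), Hadha (0.49), Slc27a2 (1.20), Pex11a (-0.086), Ehhadh (1.38) and Acaa1b (0.45) in knockouts. The mean of all probes left 0 members called in newborns and reversed Hadha for fasting in knockouts (0.23). The cause of these shifts was not tested. Leaving out 1 array at a time gave 0 to 1 members called in newborn knockouts, 1 to 2 in fasted knockouts, a fasting median of -0.056 to 0.14 in controls, and 0 to 1 for newborn against fed adult. Without fasted knockouts 1 and 2, 0 members were called in fasted knockouts.

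Over all genes, the newborn count of 242 became 0 with deposited backgrounds, 426 with the deposited log ratio, 901 in the liver channel alone, 156 without the 3 arrays that stood apart and 59 to 412 with 1 array left out (412 without wild type 1). The fasted knockout count of 80 became 149 with deposited backgrounds, 131 with slide as a block, 137 without knockout 4 and 39 without knockouts 1 and 2, and the fed count of 37 became 11 with deposited backgrounds and 30 to 97 with 1 array left out. Fasting counts of 6300 and 6120 became 3821 and 3344 with deposited backgrounds. The interaction count of 0 became 11 with the deposited log ratio and at most 12 with 1 array left out. Replicate numbers did not pair the samples (correlations of same-numbered newborns 0.51, 0.35, 0.40 and -0.26). A replicate block gave 1, 1, 0, 12, 16 and 0 members called in newborn, fasted and fed knockouts, fasting in controls, fasting in knockouts and the interaction, and 337, 42 and 20 genes in the 3 knockout comparisons. With 22.5 to 30.8% of liver probes well above background in fed livers, dim members such as Fgf21 and Pdk4 have only bounds there.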
